A study of Mus musculus with 6 samples.

Results

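The 10 genes described here belong to the bone morphogenetic protein (BMP) pathway of murine embryonic stem cells (ESCs). They are the ligand Bmp4, the receptors Bmpr1a and Bmpr2, the signal transducers Smad1 and Smad5, the inhibitors Smad6 and Bambi, and the target genes Id1, Id2 and Id3. They were chosen by name, with earlier results of these data known. Each is represented by the RefSeq transcript with the most counts summed over 6 libraries. All 10 were found among the 21071 genes in the tables.

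RNA was sequenced from V6.5 ESCs, a line of C57BL/6-129 background, after lentiviral infection with an shRNA and selection in puromycin. There was 1 library with a control hairpin against GFP, 1 with a hairpin against SMC1 (a cohesin subunit), and 2 each with different hairpins against CAPH2 (a condensin II subunit) and SMC2 (a subunit of both condensins), named here CAPH2 #1, CAPH2 #2, SMC2 #1 and SMC2 #2. The cells had been grown on irradiated fibroblasts and passaged once without them, and synthetic ERCC RNAs were added to each RNA sample by cell number. The hairpins of one target are different constructs, and nothing in the labels places them in separate cultures, so the p-values measure only the spread between these libraries.

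BMP ligands bind pairs of type I and type II receptors on the cell surface, the type I receptor phosphorylates SMAD1 and SMAD5, and these enter the nucleus with SMAD4 and activate target genes. The Id genes are direct targets. They encode proteins that bind E proteins and keep them from DNA, and in mouse ESCs grown with LIF they help to hold back neural differentiation.

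The upstream sequences of the Id genes are shown because these genes had the highest levels of the 10 and are target genes of the pathway. BMP signalling itself was not measured. Each is the 250 bases before the annotated start in NCBI build 37 (mm9), read 5′ to 3′ on the strand of the gene. Capitals mark, on either strand, the SMAD box CAGAC, the GC-rich SMAD motif GGCGCC, the TATA box TATAAA and the CCAAT box CCAAT. The window of Id1 is chr2:152561760-152562009 on the plus strand, that of Id2 chr12:25780958-25781207 on the minus strand, and that of Id3 chr4:135699487-135699736 on the plus strand.
Id1: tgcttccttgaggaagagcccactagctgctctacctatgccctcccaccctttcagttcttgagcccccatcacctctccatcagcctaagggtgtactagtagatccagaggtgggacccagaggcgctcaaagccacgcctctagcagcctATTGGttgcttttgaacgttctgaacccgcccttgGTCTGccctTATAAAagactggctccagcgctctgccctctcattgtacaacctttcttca
Id2: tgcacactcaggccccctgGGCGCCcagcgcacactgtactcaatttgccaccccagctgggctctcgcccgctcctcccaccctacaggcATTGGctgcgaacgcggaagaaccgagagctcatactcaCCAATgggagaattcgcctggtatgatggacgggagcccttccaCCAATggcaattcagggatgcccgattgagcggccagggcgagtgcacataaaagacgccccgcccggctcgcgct
Id3: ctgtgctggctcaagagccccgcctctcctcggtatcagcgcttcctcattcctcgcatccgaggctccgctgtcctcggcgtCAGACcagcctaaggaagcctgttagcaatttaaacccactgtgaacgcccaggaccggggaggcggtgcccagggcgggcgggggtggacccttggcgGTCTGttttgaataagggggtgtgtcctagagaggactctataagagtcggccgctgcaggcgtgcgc

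CAGAC was found 1 time before Id1, at base -61 from the start, and at bases -167 and -68 before Id3. GGCGCC was found before Id2, at base -231. CAGAC lay in 40.9% and GGCGCC in 13.3% of the windows of 21071 genes, so either match is common and is only a description of the letters. TATAAA, present in 11.6% of the windows, was found before Id1, and CCAAT, present in 34.8%, before Id1 and Id2.

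The knockdowns were checked first in their own targets. Smc1a stood at 39.9% of its GFP RPKM in the SMC1 library. Ncaph2, which encodes CAPH2, stood at 21.0% and 34.8% in the CAPH2 libraries. Smc2 stood at 70.7% and 71.9% in the SMC2 libraries, the weakest reduction of the 3 targets against GFP. The targets also differed from GFP under other hairpins. Smc2 stood at 157% with SMC1 and at 159% and 152% with CAPH2. Its mean RPKM was 19.0 with SMC2 and 41.4 with CAPH2. Ncaph2 stood at 67.3% with SMC1 and at 79.6% and 80.9% with SMC2, and Smc1a at 116% to 130% in the condensin libraries. RPKM values, which scale reads to exon length and sequencing depth, rested on 18823247 to 23324537 reads per library. The ESC markers Pou5f1, Sox2 and Nanog and the other 6 of that list had an RPKM of at least 1 in every library, and their summed RPKM was 3318 with GFP, 1791 with SMC1 and 2752 to 2967 in the condensin libraries.

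In the GFP library Id1 was the highest of the 10 genes and Bmpr2 the lowest, on the RPKM scale. The order Id1, Id3, Id2, Bmpr1a, Smad5, Smad1 held in each of the 6 libraries. Bmpr2 moved from the 10th place in the GFP library to the 7th in the SMC1 library, and Bmp4 from the 8th to the 10th. In the condensin libraries Bmp4 was 7th. Id3 and Id2 were close with GFP, at 26.8 and 24.9 RPKM.

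**Figure D1:**
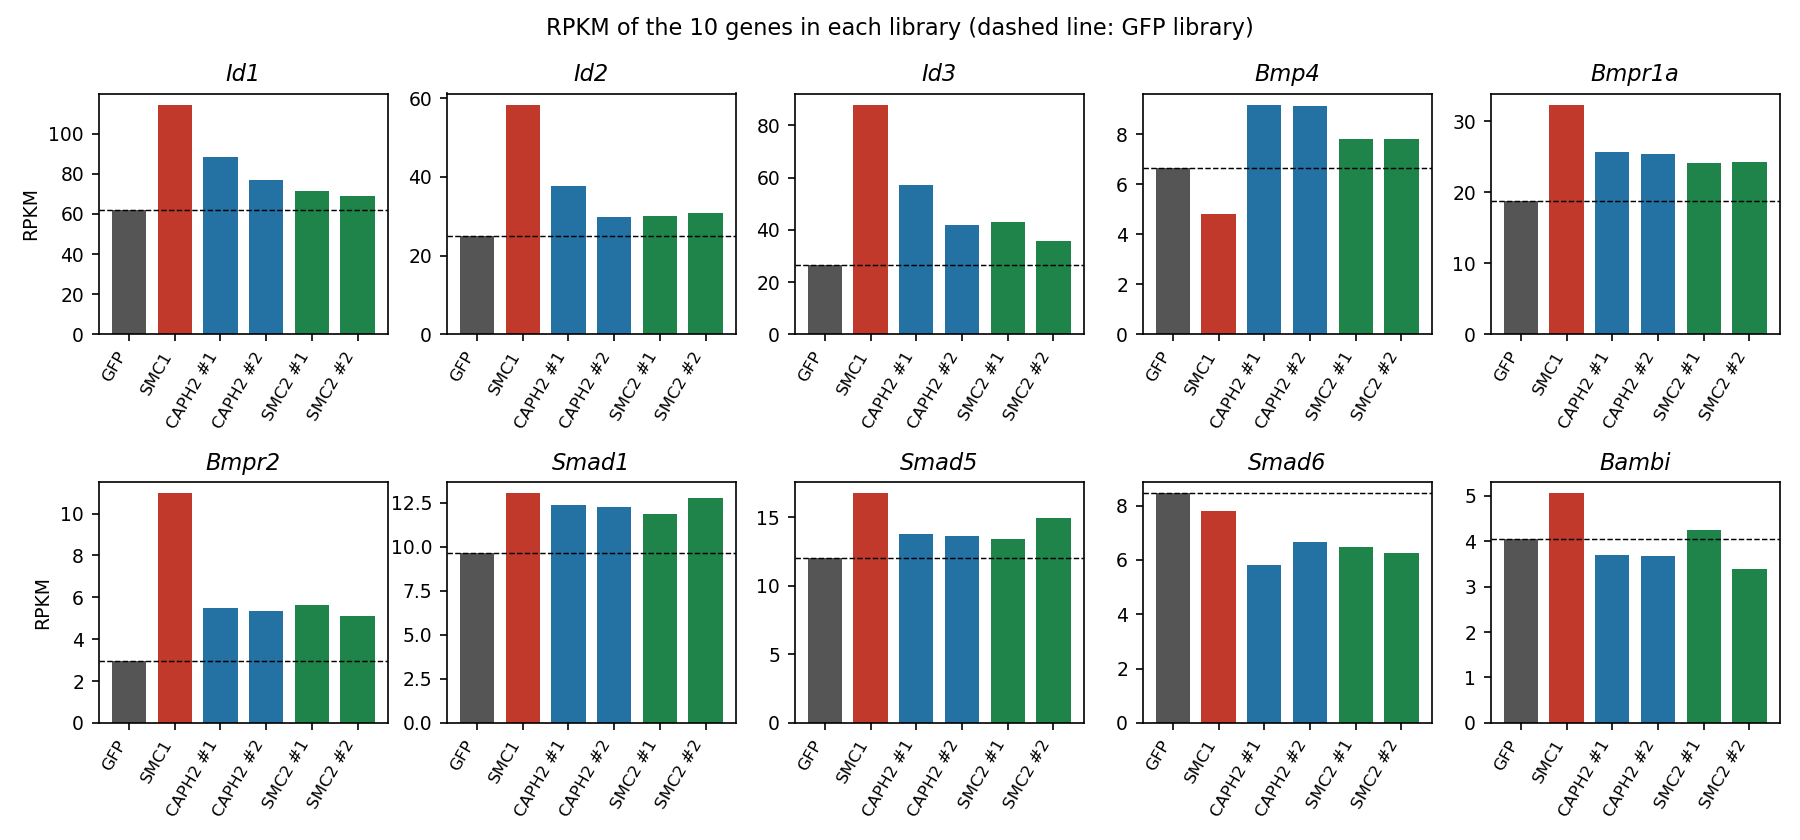
RPKM (vertical axis, a separate scale for each gene) of the 10 genes in the 6 libraries, 1 bar per library, with a dashed line at the GFP level. The SMC1 bar is the highest for 8 genes, for Bmp4 it is the lowest at 4.83 RPKM, and for Smad6 all 5 knockdown bars are under the line.

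Bmp4 encodes a secreted ligand of the pathway (NM_007554, chr14:47003196-47010274, minus strand). Its RPKM was 6.64 with GFP, 4.83 with SMC1, 9.16 and 9.12 with the CAPH2 hairpins, and 7.82 and 7.79 with the SMC2 hairpins. The SMC1 library was the lowest of the 6 and the 4 condensin libraries were all above GFP. The SMC1 level was 72.7% of GFP (95% exact binomial interval 60.1 to 87.7%, counting error only). With library sizes scaled to the ERCC counts this change was reversed, to 0.40 on the log2 scale. For the next comparison the lone SMC1 library is assumed to vary like the hairpins of one target. In the comparison of SMC1 with the condensin hairpins Bmp4 was 1.79-fold lower (log2 -0.84, SE 0.14, adjusted p = 0.000955, edgeR quasi-likelihood test with Benjamini-Hochberg adjustment). The direction was the same with ERCC scaling, at log2 -0.41 with an adjusted edgeR p of 0.737.

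Bmpr1a (NM_009758, chr14:35224254-35315732, minus strand) encodes a type I receptor with kinase activity towards the SMADs. Its RPKM was 18.8 with GFP, 32.3 with SMC1, 25.7 and 25.4 with CAPH2, and 24.1 and 24.3 with SMC2. GFP was the lowest library, SMC1 the highest, and the 4 condensin libraries lay in a narrow band between them. Bmpr2 (NM_007561, chr1:59821481-59927703, plus strand) encodes the type II receptor that activates the type I receptor. Its RPKM was 2.98 with GFP, 10.96 with SMC1, 5.50 and 5.33 with CAPH2, and 5.62 and 5.11 with SMC2. The same arrangement of libraries was seen, with a wider spacing. The SMC1 level of Bmpr2 was 368% of GFP (interval 316 to 429%), the largest change of the 10 genes in that library, and that of Bmpr1a was 172% (interval 163 to 182%). The ratio of Bmpr1a to Bmpr2 RPKM was 6.30 with GFP, 2.95 with SMC1 and 4.29 to 4.76 in the condensin libraries.

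Both receptors were higher with the condensin hairpins than with GFP, by log2 0.41 (SE 0.076, adjusted p = 0.0149) for Bmpr1a and 0.86 (SE 0.13, adjusted p = 0.00999) for Bmpr2 in edgeR. The lone GFP library is assumed there to vary like the hairpins of one target. Both receptors were higher again in the SMC1 library than with the condensin hairpins in edgeR. The differences were log2 0.34 (SE 0.072, adjusted p = 0.00384) for Bmpr1a and 0.99 (SE 0.11, adjusted p = 9.6e-05) for Bmpr2. The lone SMC1 library is treated there in the same way. Both calls against GFP were lost with ERCC scaling (adjusted edgeR p of 0.754 for each) and without SMC2 #1. Between SMC1 and the condensin hairpins, ERCC scaling gave an adjusted edgeR p of 0.412 for Bmpr1a and 0.0260 for Bmpr2.

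Smad1 and Smad5 encode the transducers that the type I receptor phosphorylates. The RPKM of Smad1 (NM_008539, chr8:81862298-81923367, minus strand) was 9.66 with GFP, 13.0 with SMC1, 12.3 and 12.2 with CAPH2, and 11.9 and 12.8 with SMC2. Every knockdown library was above GFP, and the SMC1 library was close to the condensin libraries. That difference was log2 0.048 (95% interval -0.17 to 0.27) with an adjusted edgeR p of 0.716, and the interval leaves room for a difference of up to 0.27. Against GFP, Smad1 was higher with the condensin hairpins by log2 0.35 (SE 0.10, adjusted p = 0.0496 in edgeR), just inside the threshold of 0.05. The call was lost in 5 of 12 alternatives, with adjusted values of 0.143 in DESeq2, 0.0522 with DESeq2 size factors in edgeR, 0.754 with ERCC scaling, 0.0963 without SMC2 #1 and 0.104 without SMC2 #2.

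The RPKM of Smad5 (NM_001164041, chr13:56804413-56843739, plus strand) was 12.015 with GFP, 16.7 with SMC1, 13.8 and 13.7 with CAPH2, and 13.4 and 15.0 with SMC2. SMC1 was the highest library and GFP the lowest. Neither comparison passed the threshold: SMC1 against the condensin hairpins gave log2 0.23 (SE 0.085) with an adjusted edgeR p of 0.0509, and the condensin hairpins against GFP log2 0.22 with 0.121. The first of these passed in 8 of 12 alternatives, with adjusted values from 0.0205 to 0.521 over the 12 and of 0.0389 with gene symbols from RefSeq accessions alone.

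Smad6 encodes an inhibitory SMAD that is itself induced by BMP signals. The RPKM of Smad6 (NM_008542, chr9:63800884-63869866, minus strand) was 8.45 with GFP, 7.79 with SMC1, 5.80 and 6.65 with CAPH2, and 6.47 and 6.25 with SMC2. It was the one member whose 5 knockdown libraries all lay below GFP, which 32.5% of 12177 genes with a GFP RPKM of at least 1 also did. The interval of the SMC1 level, 81.2 to 105% of GFP, included GFP, while those of the 4 condensin libraries did not. The condensin hairpins against GFP gave log2 -0.42 (SE 0.12), with an adjusted edgeR p of 0.0522 that missed the threshold and of 0.049 with symbols from accessions alone. This difference passed in 6 of 12 alternatives. With ERCC scaling the direction was reversed, to 0.031.

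Bambi (NM_026505, chr18:3507955-3516402, plus strand) encodes a membrane protein that resembles a type I receptor but has no kinase. Its RPKM was 4.06 with GFP, 5.05 with SMC1, 3.68 and 3.68 with CAPH2, and 4.24 and 3.39 with SMC2. The SMC1 library was the highest, and GFP lay within the range of the condensin libraries. SMC1 exceeded the condensin hairpins by log2 0.40 (SE 0.14, adjusted p = 0.0393 in edgeR). The call was lost in DESeq2 (adjusted value 0.116), with ERCC scaling (0.340) and without SMC2 #2 (0.0722). The condensin hairpins against GFP gave log2 -0.11 (95% interval -0.42 to 0.20) and 0.35 with ERCC scaling. The ratio of Smad1 to Smad6 RPKM was 1.14 with GFP, 1.67 with SMC1 and 1.83 to 2.13 in the condensin libraries.

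**Figure D2:**
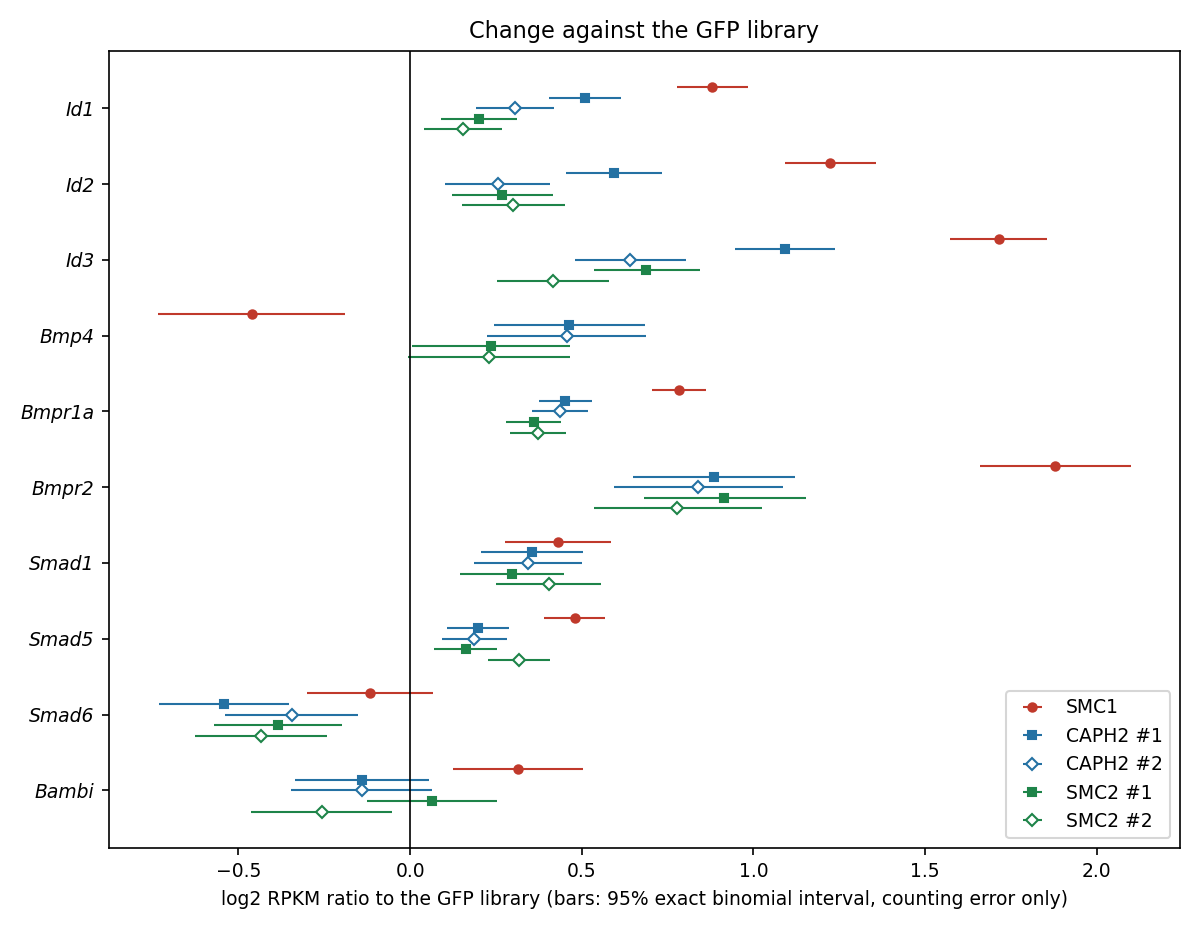
Log2 ratio of RPKM to the GFP library (horizontal axis) for the 10 genes (vertical axis) in the 5 knockdown libraries, with 95% exact binomial intervals that cover counting error only. The SMC1 point lies farthest to the right for 9 genes and at -0.46 for Bmp4; with ERCC scaling the points of Bmp4 with SMC1, of Smad6 in each library but CAPH2 #2, and of Bambi with CAPH2 #1 and SMC2 #2 change side.

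The Id genes encode inhibitors of E proteins. Id1 (NM_010495, chr2:152562010-152563146, plus strand) had an RPKM of 62.1 with GFP, 114 with SMC1, 88.3 and 76.7 with CAPH2, and 71.3 and 69.0 with SMC2. SMC1 was highest, then both CAPH2 libraries, then both SMC2 libraries, and GFP was lowest. Id2 (NM_010496, chr12:25778664-25780957, minus strand) had an RPKM of 24.9 with GFP, 58.3 with SMC1, 37.6 and 29.8 with CAPH2, and 30.0 and 30.7 with SMC2. Here CAPH2 #2 did not exceed the SMC2 libraries. Id3 (NM_008321, chr4:135699737-135701307, plus strand) had an RPKM of 26.8 with GFP, 87.8 with SMC1, 57.0 and 41.8 with CAPH2, and 43.1 and 35.7 with SMC2. Of the condensin libraries CAPH2 #1 was the highest for each of the 3 genes.

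Averaged over hairpins, Id3 was 49.4 ± 10.8 RPKM with CAPH2 and 39.4 ± 5.23 with SMC2 (SD, n = 2 hairpins each). Id1 was 82.5 ± 8.20 and 70.2 ± 1.62, and Id2 33.7 ± 5.56 and 30.4 ± 0.486, in the same order. The hairpins of CAPH2 differed more in Id3 than those of SMC2 did. With SMC1 the levels were 184% of GFP for Id1 (interval 171 to 198%), 234% for Id2 (213 to 256%) and 328% for Id3 (298 to 362%), from 1 library each and with no test.

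The summed RPKM of Id1, Id2 and Id3 was 114 with GFP, 260 with SMC1, 183 and 148.2 with CAPH2, and 145 and 136 with SMC2. The SMC1 sum was 2.29-fold that of GFP. Id1 made up 54.6% of the sum with GFP and 43.9% with SMC1, while Id3 made up 23.5% and 33.7%. In bulk RNA, more cells with a high level and a higher level in each cell cannot be told apart.

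In edgeR the SMC1 library exceeded the condensin hairpins by log2 0.55 (SE 0.090, adjusted p = 0.000964) for Id1, 0.83 (SE 0.11, adjusted p = 0.000336) for Id2 and 0.96 (SE 0.14, adjusted p = 0.000614) for Id3. With ERCC scaling the differences were 0.97, 1.24 and 1.36, and the adjusted edgeR p was 0.235 for Id1, 0.0742 for Id2 and 0.0418 for Id3. The condensin hairpins exceeded GFP by log2 0.73 for Id3 (SE 0.17, adjusted p = 0.0258). Id1 and Id2 gave 0.30 and 0.37, with adjusted edgeR p-values of 0.0717 and 0.0842, and did not pass.

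**Figure D3:**
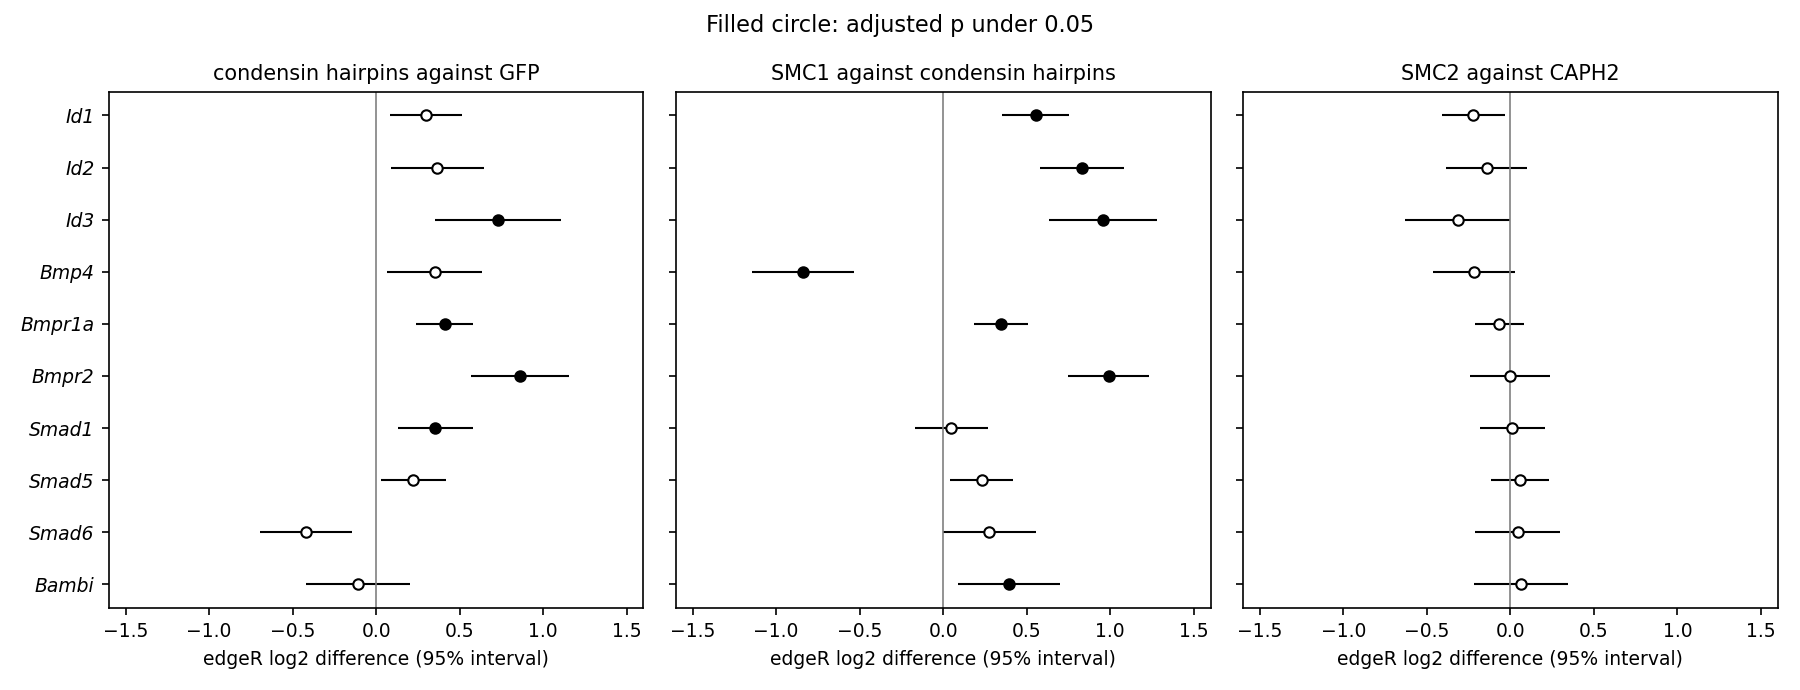
Log2 differences from edgeR with 95% intervals (horizontal axis) for the 10 genes in 3 comparisons, with filled circles at an adjusted p under 0.05. In the middle panel 7 circles are filled, 6 to the right and Bmp4 to the left, 4 are filled in the left panel and none in the right panel; with ERCC scaling Smad6 and Bambi change side in the left panel, and Id1, Id2, Bmp4, Bmpr1a and Bmpr2 in the right panel.

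Over the 10 genes, 7 differed between SMC1 and the condensin hairpins, 6 of them higher (Id1, Id2, Id3, Bmpr1a, Bmpr2 and Bambi) and Bmp4 lower. Of all 14599 genes tested, 43.9% were called, 22.1% higher and 21.8% lower. With ERCC scaling Id3 and Bmpr2 alone of the 10 were called, beside 9.6% of all genes. The condensin hairpins differed from GFP in 4 of the 10, all higher (Id3, Bmpr1a, Bmpr2 and Smad1), and 11.8% of all genes were called, 6.44% higher and 5.4% lower. That count was 0 with ERCC scaling, as over all genes. At an unadjusted edgeR p under 0.05 there were then 2 of the 10 and 626 of 14599 genes. In DESeq2 the count was 3, where 7.63% of all genes were called. Leaving out CAPH2 #2 raised the calls and leaving out SMC2 #1 removed those of the 10. Calls over all genes moved the same way. Without SMC2 #1 the differences stayed at log2 0.66 for Id3, 0.41 for Bmpr1a, 0.82 for Bmpr2 and 0.38 for Smad1.

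Between SMC2 and CAPH2, the comparison with 2 libraries on each side, edgeR called 0 of the 10 genes, as did DESeq2. Of all genes 0.00685% were called, which is 1 gene, Smc2. Ncaph2 itself had an adjusted edgeR p of 0.0526, although it was at 22.4 ± 7.81 RPKM with CAPH2 and 64.4 ± 0.711 with SMC2 (SD, n = 2). At an unadjusted edgeR p under 0.05 there were 2 of the 10, beside 453 of 14599 genes. The 2 were Id1 at log2 -0.22 (95% interval -0.41 to -0.034) and Id3 at -0.32 (95% interval -0.63 to -0.002). Without CAPH2 #2, Id3 was called at log2 -0.52 in edgeR, with a Benjamini-Hochberg adjusted value of 0.000372.

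All contrasts with GFP share 1 library. Read library by library, SMC1 put 3 of the 10 genes (Id2, Id3 and Bmpr2) at least 2-fold above GFP, against 6.49% of 12177 genes, and CAPH2 #1 put Id3 there, against 0.969%. None of the 10 was at least 2-fold below GFP in any library, where 8.46% of genes were with SMC1, 1.57% and 0.485% with the CAPH2 hairpins, and 1.04% and 0.624% with the SMC2 hairpins. The other 3 condensin libraries put none of the 10 at least 2-fold above GFP, against 0.23%, 0.263% and 0.304% of genes. Above GFP at any size were 8 of the 10 with SMC1 (47.2% of genes), 8 with CAPH2 #1 (48.6%), 8 with CAPH2 #2 (46%), 9 with SMC2 #1 (45.9%) and 8 with SMC2 #2 (45%). SMC1 lay above all 4 condensin libraries in 9 of the 10 (36.9% of genes) and below them in Bmp4 (41.8%). In all 5 knockdown libraries 7 of the 10 lay above GFP, as did 26.4% of genes. The median log2 change of the 10 was 0.63 with SMC1, 0.46 and 0.32 with CAPH2, and 0.25 and 0.31 with SMC2, where the medians of all genes ran from -0.035 to -0.011. Bmp4 was the member with SMC1 below and all 4 condensin libraries above GFP, a pattern of 5.44% of genes.

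Marker lists of other cells were summed beside the Id genes. The sums for fibroblasts and for primitive endoderm were above GFP in all 5 knockdown libraries, as the Id sum was. The summed RPKM of 12 fibroblast markers, led by the collagen gene Col1a1, was 53.4 with GFP, 119 with SMC1, 86.8 and 58.5 with CAPH2, and 67.7 and 58.9 with SMC2. Lum and Fap were at 0 counts in CAPH2 #1, and Lum in CAPH2 #2. The 10 primitive endoderm markers summed to 64.6 with GFP, 100.3 with SMC1 and 67.2 to 75.7 in the condensin libraries. In each library 5 of these 10 had an RPKM of at least 1, and Lamb1 was the highest. Lamb1 alone was 32.6 with GFP, 46.7 with SMC1, 36.8 and 32.3 with CAPH2, and 32.5 and 35.4 with SMC2. The 7 trophectoderm markers summed to 172 with GFP, 292 with SMC1 and 133 to 179 in the condensin libraries. Of the condensin libraries CAPH2 #1 alone was above GFP. Krt18 was the highest of these markers in each library, at 61.0 with GFP and 156 with SMC1. Elf5 was at 0 counts in 5 of 6 libraries. The 6 mesendoderm markers ran from 28.1 with SMC2 #2 to 49.6 with CAPH2 #2, and were 33.7 with GFP and 40.5 with SMC1. The part of these cells in the levels of the 10 genes was not tested.

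**Figure D4:**
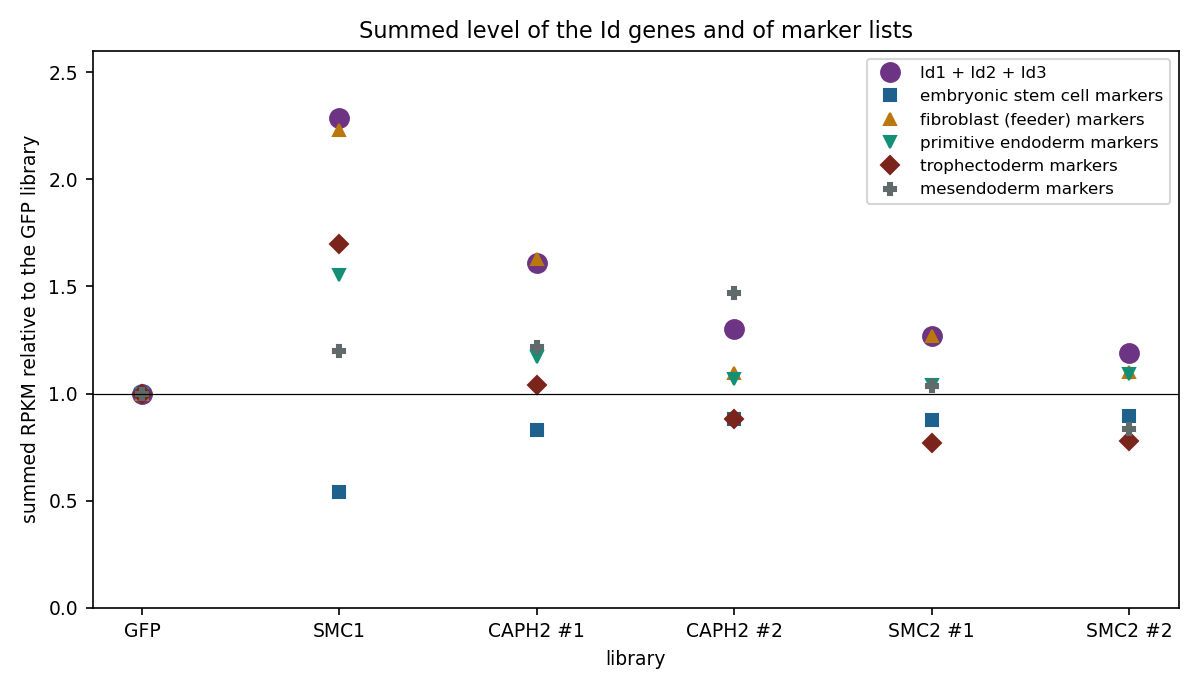
Summed RPKM relative to the GFP library (vertical axis) of Id1, Id2 and Id3 and of 5 marker lists in the 6 libraries (horizontal axis), 1 point per list and library. The sum of the Id genes was 2.29-fold of GFP with SMC1. It lies close to that of the fibroblast markers in the SMC1, CAPH2 #1 and SMC2 #1 libraries. In CAPH2 #2 and SMC2 #2 the Id sum, 1.30-fold and 1.19-fold of GFP, lies above that of the fibroblast markers. The primitive endoderm markers also lie above 1 in every knockdown library, and the ESC markers lie below 1 in each.

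Another 66 genes of the pathway were listed by role, and 57 passed the filter on low counts. Between SMC1 and the condensin hairpins 35 were higher and 5 lower in edgeR, where 22.1% and 21.8% of all genes were, with a median log2 of 0.54 against -0.025 for all genes. The condensin hairpins against GFP gave 7 higher and 1 lower, where 6.44% and 5.4% of all genes were. The lower one was the ligand gene Bmp7 at log2 -0.69 (edgeR, adjusted p = 0.0239), and SMC2 against CAPH2 gave 0 in edgeR. With ERCC scaling 14 were higher and 1 lower between SMC1 and the condensin hairpins, where 8.61% and 0.986% of all genes were. In the other comparisons 0 were called, and Tob1 was the one called gene whose direction was reversed. Of the called genes named by role below, Gdf3, Acvr1, Skil, Ski, Tob1, Pcsk6, Id4, Dusp9, Tcf12 and Tcf4 were no longer called with ERCC scaling.

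Of 10 ligand genes 7 were higher with SMC1 than with the condensin hairpins, beside 22.1% of all genes. All of these ligands but Gdf3 were low, at 0.604 to 3.025 RPKM with SMC1. Bmp6 rose by log2 1.15 (edgeR, adjusted p = 0.0119), from 0.63 to 1.16 RPKM in the condensin libraries to 2.05, and Gdf3, the most abundant of these ligands, by 0.24. Bmp4 went the other way. Of 9 receptors and co-receptors 5 were higher, beside the same 22.1%. They were led by Bmpr1b, a type I receptor, at log2 1.63 (adjusted p = 0.000195 in edgeR) and Acvr1, another type I receptor, at 0.81. Acvr2b, the most abundant in the GFP library, gave 0.26 with an adjusted edgeR p of 0.169.

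Among 9 SMADs and nuclear partners 6 were higher and 1, Tob1, was lower (log2 -0.42, and 0.018 with ERCC scaling). Of all genes 22.1% were higher and 21.8% lower. Zfp423, a zinc finger partner of the SMADs, rose by log2 1.04 (edgeR, adjusted p = 5.33e-05), and the SMAD co-repressors Skil and Ski by 0.88 and 0.42. The common SMAD, Smad4, gave 0.20 with an adjusted edgeR p of 0.0601. Of 16 extracellular antagonists and processing enzymes 11 were higher and 1 lower, beside the same 22.1% and 21.8% of all genes. The higher ones were led by the antagonist Nbl1 at log2 1.73 (adjusted p = 7.69e-05 in edgeR), and the lower one was the protease gene Pcsk6.

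Of 10 other target genes 4 were higher and 3 lower, beside 22.1% and 21.8% of all genes. Msx1, a homeobox gene, rose by log2 1.29 (edgeR, adjusted p = 0.00216). Tbx3, a transcription factor of naive ESCs, fell by 2.74 (adjusted p = 4.03e-07), from 23.5 to 25.6 RPKM in the condensin libraries to 3.75. Id4, the remaining member of the Id family, fell by 1.06 (adjusted p = 0.00412) and the phosphatase gene Dusp9 by 0.72, so Id4 moved opposite to Id1, Id2 and Id3. With ERCC scaling Id4 was still lower, at log2 -0.61, but was not called (adjusted p = 0.603 in edgeR, Benjamini-Hochberg), and Tbx3 was called at -2.30. Of the 3 E proteins that ID proteins bind, Tcf12 and Tcf4 rose by 0.68 and 0.58, and Tcf3, the most abundant, gave -0.11 with an adjusted edgeR p of 0.323.

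**Figure D5:**
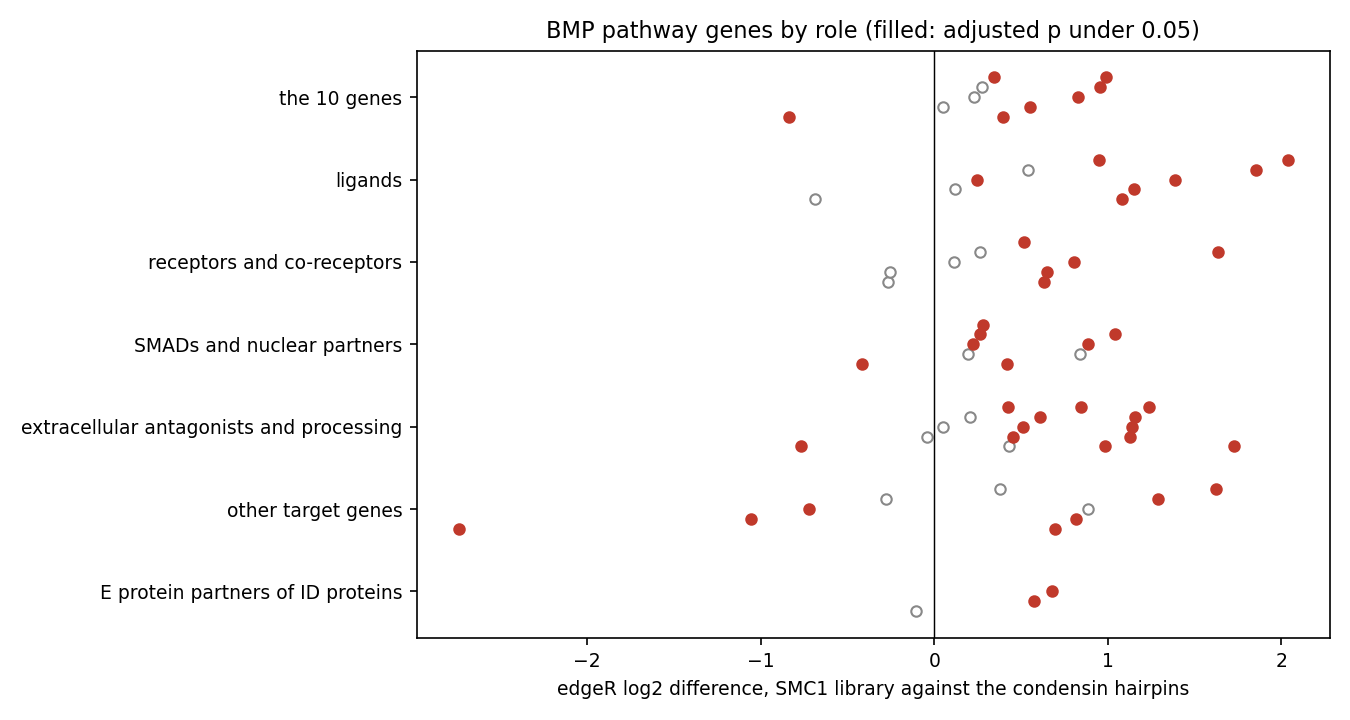
Log2 difference between the SMC1 library and the condensin hairpins in edgeR (horizontal axis) for the 10 genes and 57 other pathway genes, by role (vertical axis), 1 point per gene, filled at an adjusted p under 0.05. Most filled points lie to the right of 0, and Tbx3 lies farthest to the left at -2.74; with ERCC scaling 6 of the 67 points change side, those of Tob1, Tcf3, Eng, Acvrl1, Hey1 and Bmper.

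The genes whose 5 log2 ratios to GFP lay nearest to those of each Id gene were found among 10047 genes with a mean of at least 200 counts. They were Wars2, Rhod and Pdia3 for Id1, at Euclidean distances of 0.063 to 0.15, Igdcc4, Ap1s2 and Col5a1 for Id2, at 0.16 to 0.18, and Nt5e, Efnb1 and Aebp1 for Id3, at 0.19 to 0.23. Id2 was the 279th nearest gene to Id1, and Id3 the 5318th. Seen from Id2, Id1 was the 143rd and Id3 the 1583rd. Seen from Id3, Id2 was the 243rd and Id1 the 596th. The distance depends on the size of the changes, and Id1, Id2 and Id3 each lay above GFP in all 5 knockdown libraries. The ratios share the GFP library.

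Some reads could belong to other loci. A stretch of 294 bases of Id2, or 23.1% of the transcript, matched 1 other locus at 95.6% identity, and a stretch of 128 bases of Bmpr2, or 3.65%, matched 1 other locus at 96.9%. The Id transcripts shared at most 19 bases in a row with each other. Exons of Bmp4 and Bmpr1a overlapped genes on the opposite strand, Gm15217 by 89 bases and Gm17110 by 290 bases, and the library kit does not mark strand.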

How the data were processed

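RNA-seq of 6 libraries was analysed. The authors aligned reads to mm9 (NCBI build 37) with Bowtie (-e 70 -k 1 -m 2 -n 2) and, with the program RPKM_count 2.3.5, deposited a read count per RefSeq transcript. They also deposited RPKM, in which each count is divided by the exon length and by the sequencing depth. The ERCC RNAs were not used in it. Total counts were 25467427 to 31337313 per library, and genes with few counts are imprecise.

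Symbols came from RefSeq accessions for 25353 of 26073 transcripts and from same-strand overlap with GENCODE genes for 698, and 22 kept their accession. The overlap step was added after a first analysis by accession alone (21409 genes) had been seen, because Ncaph2 was then tested under 2 names although the design called for 1 transcript per gene. Both were run. The overlap table is the one reported, and 3 calls made by accession alone were lost in it, those for Smad6, Smad5 and, between SMC2 and CAPH2, Ncaph2 itself (adjusted edgeR p 0.0333 by accession and 0.0526 as reported).

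Genes that reached 10 counts in 2 or more libraries were tested with edgeR 4.0.16 (R 4.3.3, TMM, quasi-likelihood, Benjamini-Hochberg over 14599 genes, threshold 0.05), in 1 model of 4 groups with 2 residual degrees of freedom, and the step was tested on simulated data. DESeq2 1.42.0 was an alternative, beside other scalings, filters, groupings and leaving out each hairpin. Ratios to GFP used RPKM with no pseudocount. Copies were searched with blastn 2.17.0 (at least 95% identity over 100 bases).

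The 10 genes and the lists were chosen with earlier results of these data known. Named beside them are the knockdown targets, per role up to 3 genes with the largest called change between SMC1 and the condensin hairpins and a mean of at least 50 counts, the gene with the highest GFP RPKM per role, and the 3 nearest genes to each Id gene. Bmp7, Tob1, Pcsk6, Eng, Acvrl1, Hey1 and Bmper were named after their values were seen.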

Additional observations from a re-analysis of the deposited data

Results flagged for a closer look

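Bmp4 stood out because SMC1 and the condensin knockdowns lay on opposite sides of the GFP library. SMC1 and GFP are 1 library each. SMC1 was below GFP and all 4 condensin libraries were above it, and the difference between SMC1 and the condensin hairpins was log2 -0.84 (edgeR, adjusted p = 0.000955). Over 12 alternatives it ran from -0.85 to -0.41, and it was called in 11 of them, the exception being ERCC scaling, under which the SMC1 level itself lay above GFP.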

How the results depend on the processing

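The scaling to ERCC counts shifted log2 ratios to GFP by 0.89 (SMC1), 0.64 and -0.059 (CAPH2 hairpins) and 0.62 and 0.56 (SMC2 hairpins). With it, 0 genes and 0 of the 10 were called for the condensin hairpins against GFP, 1401 genes and 2 of the 10 for SMC1 against the condensin hairpins (1257 higher and 144 lower, where TMM gave 3233 and 3176), and 4 genes for SMC2 against CAPH2. The median change of the 10 became 1.496 with SMC1, 0.77 with CAPH2 and 0.87 with SMC2. Directions were reversed for the condensin hairpins against GFP in Smad6 (0.031) and Bambi (0.35), for SMC2 against CAPH2 in Id1 (0.016), Id2 (0.083), Bmp4 (0.044), Bmpr1a (0.19) and Bmpr2 (0.26), and against GFP in Bmp4 (0.40) and Smad6 (0.75) with SMC1, Bambi with CAPH2 (0.19), and Smad6 (0.19) and Bambi (0.52) with SMC2.

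DESeq2 called 6 genes for SMC2 against CAPH2, 1114 for the condensin hairpins against GFP and 4242 for SMC1 against them. Without a filter on low counts 6 genes were called for SMC2 against CAPH2, where Bmpr2 was reversed (0.00088). Against GFP the condensin hairpins then gave 7 of the 10, beside 13.9% of 18004 genes. For SMC2 against CAPH2, 3 genes were called with all RefSeq transcripts, 2 with only those 4 libraries and 3 with symbols from accessions alone, the last chosen after seeing the data. That matching also called Smad6 (-0.42) against GFP and Smad5 (0.24) with SMC1.

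Leaving out each hairpin in turn gave 1 to 337 genes and 0 to 1 of the 10 for SMC2 against CAPH2, the most without CAPH2 #2. It gave 115 to 3993 genes and 0 to 7 of the 10 for the condensin hairpins against GFP, the fewest without SMC2 #1 and the most without CAPH2 #2 (2750 genes without CAPH2 #1 and 927 without SMC2 #2), and 4987 to 7295 genes and 7 to 9 of the 10 for SMC1 against them. Median changes ran from 0.32 to 0.46 with CAPH2 and from 0.25 to 0.31 with SMC2. In SMC2 against CAPH2 the sign changed for Id2 (range -0.30 to 0.029), Bmpr2 (0.010) and Smad6 (range -0.064 to 0.14) without CAPH2 #1, for Bambi (range -0.11 to 0.21) without SMC2 #1, and for Bmpr2 (range -0.075 to 0.064), Smad1 (range -0.040 to 0.063) and Smad5 (range -0.019 to 0.13) without SMC2 #2. Bambi with SMC2 against GFP ran from -0.26 to 0.063, the latter without SMC2 #2. The causes were not tested.

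The replicate numbers only share a number (correlation of deviations 0.050 over 14409 genes). With the replicate number as a block, SMC2 against CAPH2 called 64 genes and 0 of the 10.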
